A study of Mus musculus with 27 samples.

Results

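P2X receptors are the channels through which extracellular ATP opens a path for cations into a cell, and mice have a gene for each of 7 subunits, P2rx1 to P2rx7. All 7 were found among the 40129 genes measured in the mouse retina and all were high enough to be tested. They were taken as a family because of P2rx2. At p17 it ranked 7 by adjusted p among the 1390 genes that were lower in diseased retinas with an adjusted p under 0.05. P2rx2 was thus chosen by its values in the comparison at p17, which are described here without a test, whereas the other 6 members entered by their family name.

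The samples were retinas of wild-type (WT) C57BL/6 mice (C57BL/6J in the study's methods). In oxygen-induced retinopathy (OIR), pups breathe excess oxygen in the second postnatal week, which halts and prunes retinal vessels, and on return to room air the poorly perfused retina becomes hypoxic (around p14) and then grows abnormal vessels, or retinal neovascularization (RNV, most extensive around p17). Control mice (nOIR) stayed in room air and were killed at the same ages. At p14, 6 nOIR and 6 OIR mice were compared, and at p17, 6 nOIR and 8 OIR mice, with a library per mouse from 1 or both retinas and no genetic change in any group. A further nOIR p14 mouse, S4, was left out as in the study, which named lens genes as the reason (lens markers in the mice that were kept are given with the other markers). OIR p14 mouse S1 stood apart from its group, since the chi-square of its reads over genes, divided by the degrees of freedom (1 for sampling noise alone), was 55.4 to 92 against the other 5 mice and 13.6 to 46.1 among those 5. The differences of P2rx1, P2rx2, P2rx5 and P2rx7 at p14 are also given without it. OIR p17 mouse S8 had the highest such values of its group, 25.6 to 139.2 against the other 7 mice, which overlapped with the 20.3 to 96.0 among those 7, and the differences of P2rx1, P2rx5 and P2rx7 at p17 are given without it as well. Among controls, nOIR p14 mouse S1 had 27.55 to 71.24 against the other 5 kept mice, which overlapped with the 13.96 to 38.05 among those 5. It had the lowest P2rx7 and P2rx4 and the highest P2rx1 of the kept nOIR p14 mice. For nOIR p17 mouse S1 the values were 20.47 to 40.76, which overlapped with the 9.39 to 30.14 among the other 5. Pups came from several litters whose membership is not known here, so the p-values take mice as independent. Between 17029536 and 33593428 reads per mouse were counted on genes. Marker genes of rods summed to between 652335 and 1350261 normalized reads (read counts divided by a size factor for each mouse), and no listed marker of a retinal cell type was at 0 in all mice.

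P2X subunits assemble in threes, and each subunit crosses the membrane in a pair of helices around a large extracellular domain that binds ATP. P2X2 is found on many neurons and, in rodent retina, on amacrine cells that include the cholinergic (starburst) type, P2X3 is best known from sensory neurons, and P2X1 from smooth muscle and platelets. P2X4 and P2X7 are carried by microglia and other immune cells as well as by neurons, and P2X7 opens only at high ATP and is coupled to inflammasome activation. P2X5 and P2X6 form weak channels on their own and are known mainly as partners in mixed channels.

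Since the family shares sequence, it was asked first whether reads of 1 member could be counted on another. The reads had 50 bases, and no stretch of that length in the transcripts of P2rx1, P2rx2, P2rx3 or P2rx5 occurred in transcripts of another gene (GENCODE M21 transcripts). The longest identical stretch in the coding sequences of any pair of members was 26 bases, shared by P2rx2 and P2rx3. It is shown in capitals within 120 bases of each coding sequence (bases 884 to 1003 of P2rx2 and 782 to 901 of P2rx3, counted from the start codon), as the longest identical stretch that P2rx2 shares with any member.
P2rx2: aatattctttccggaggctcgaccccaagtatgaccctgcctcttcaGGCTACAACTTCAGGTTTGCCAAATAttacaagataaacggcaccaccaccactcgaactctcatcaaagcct
P2rx3: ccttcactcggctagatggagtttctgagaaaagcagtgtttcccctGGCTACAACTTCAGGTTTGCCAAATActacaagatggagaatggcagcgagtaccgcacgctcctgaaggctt
The base on either side of the capitals differs between the genes, so a 50-base read across the shared stretch also covers a base that tells them apart. Of the other members, 1.63% of such stretches of P2rx4, 1.17% of P2rx7 and 7.97% of P2rx6 occurred elsewhere. P2rx6 exons overlap those of Slc7a4 on the opposite strand over 13.9% of their length, P2rx3 exons overlap Ssrp1, also on the opposite strand, over 1.83%, and P2rx7 exons overlap the microRNA gene Mir8115 on the same strand over 1.99%. The cDNA kit does not mark strand, so reads from overlaps on either strand cannot be assigned to 1 gene.

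Per kb of exon, averaged over 26 mice, P2rx4 was the member with the highest level (67.0 normalized reads per kb), followed by P2rx2 (34.4), P2rx5 (23.4), P2rx3 (22.2), P2rx6 (14.0), P2rx1 (7.93) and P2rx7 (7.29). Within nOIR p17 retinas, P2rx2 stood at 75.1 and P2rx4 at 67.2 normalized reads per kb, whereas in OIR p17 retinas P2rx2 stood at 11.4 and P2rx4 at 70.4. At p17, P2rx2 was thus near P2rx4 in controls and near P2rx7 (11.3 normalized reads per kb) in OIR retinas.

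P2rx2 was lower in OIR retinas than in controls at p14, the hypoxic stage. In nOIR p14 mice, its lowest, median and highest values were 55.6, 140.6 and 153.3 normalized reads, and in OIR p14 mice 19.9, 21.0 and 40.8. Every OIR mouse lay below every control, including the control with 55.6 (mouse S3), and 4 of the 6 OIR mice were between 19.9 and 21.6. Of all genes tested, 1.86% had every OIR mouse below every control at this age. Group means were 123.9 ± 38.1 (SD, n = 6) and 27.2 ± 10.4 (SD, n = 6), a 4.56-fold lower level. On the scale of log2(normalized reads + 1), P2rx2 fell by 2.14 (SE 0.29, 95% interval -2.74 to -1.55), with an adjusted p of 1.17e-05 by limma with Benjamini-Hochberg adjustment over 27137 genes. That fit takes its spread from all 4 groups, the p17 mice whose values chose P2rx2 included, and a fit of the p14 mice alone gave an adjusted p of 0.000238. The exact permutation test over mice (two-sided) gave p = 0.0022, the smallest that 6 against 6 mice allow. As the whole retina was sequenced, fewer cells that carry P2rx2 and less P2rx2 RNA per cell cannot be told apart, here and for all members. Mouse S4 had 138.8 normalized reads, within the range of the other controls, and with it included P2rx2 fell by 2.18 on the log2 scale. Without OIR p14 mouse S1 it fell by 2.09 (adjusted p = 4.77e-05).

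At p17, the stage of RNV, the values that chose the gene were further apart. P2rx2 had a lowest, median and highest value of 162.5, 176.5 and 244.9 normalized reads in nOIR mice and of 13.6, 27.3 and 47.2 in OIR mice. The highest of the 8 OIR mice was thus well below the lowest of the 6 controls, and 1.98% of all genes tested were apart in this direction. The means were 193.4 ± 34.9 (SD, n = 6) and 29.3 ± 12.3 (SD, n = 8), or 6.60-fold lower, and on the log2 scale P2rx2 fell by 2.77 (SE 0.27).

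**Figure D1:**
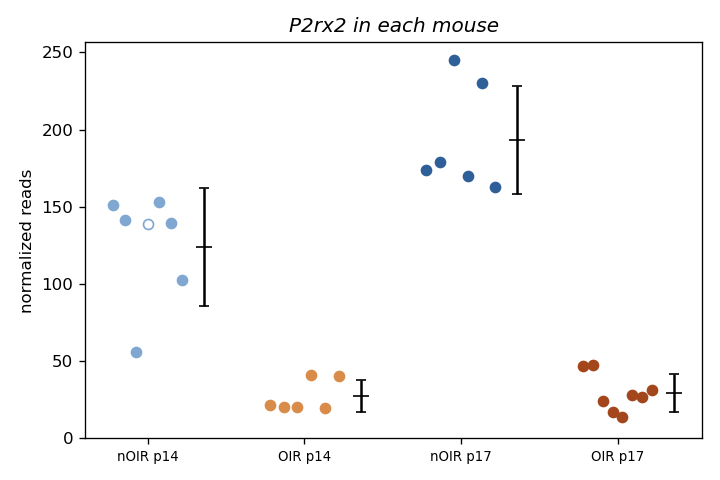
P2rx2 in each mouse, as normalized reads (vertical axis) by group (horizontal axis), where each point is a mouse, the bar beside it is the group mean ± SD, and the open point is mouse S4, which is not part of the mean. Control mice lie between 55.6 and 244.9 normalized reads and all OIR mice at or below 47.2.

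Between the ages, P2rx2 was higher at p17 than at p14 in controls and similar in OIR mice. All 6 nOIR p17 mice lay above all 6 nOIR p14 mice, as for 0.814% of all genes tested, with a difference of 0.70 on the log2 scale, while OIR p17 and OIR p14 mice overlapped and differed by 0.07. The order of group means was nOIR p17, nOIR p14, OIR p17, OIR p14. Of the neighbours in that order, only nOIR p14 and OIR p17 were apart beyond the spread, the ranges of nOIR p17 and nOIR p14 did not overlap although their SD intervals did, and the OIR groups overlapped. The fall at p17 exceeded that at p14 by 0.63 on the log2 scale. These values share the p17 mice with the comparison that chose the gene and carry no test.

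P2rx5 was the second member that was lower at p14. In nOIR p14 mice, P2rx5 had 43.9, 64.4 and 99.7 normalized reads (lowest, median, highest), and in OIR p14 mice 5.69, 29.1 and 50.2. Of the 6 OIR mice, 5 were below all controls and mouse S6, with 50.2, was above the lowest control. P2rx5 fell by 1.38 on the log2 scale (SE 0.36, 95% interval -2.11 to -0.64, limma adjusted p = 0.0168). Without OIR p14 mouse S1, which had the 5.69, it fell by 0.98 (adjusted p = 0.0397). A fit of the p14 groups alone gave the same fall with an adjusted p of 0.0584. With P2rx2, 2 of 7 members were lower at p14, where 2.91% of all genes tested passed in that direction (adjusted p under 0.05). P2rx2 was chosen by its fall at p17, so the count that holds it cannot be read as an excess over that share. Of the 6 other members, P2rx5 alone was lower. No member was called higher at p14 by limma (1 at an unadjusted p under 0.05, 0 by edgeR and 1 by DESeq2), where the share for all genes was 3.18%.

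By p17 the P2rx5 groups overlapped more. In nOIR p17 mice, P2rx5 ranged from 54.1 to 91.8 normalized reads with a median of 77.4, and in OIR p17 mice from 30.9 to 112.7 with a median of 40.1. Of the 8 OIR mice, 6 were below all controls and mouse S8, with 112.7, was above all of them. The difference was -0.68 on the log2 scale (95% interval -1.36 to 0.01, limma adjusted p = 0.224). Without mouse S8, it was -0.86 with an adjusted p of 0.0846, and with a block for the mouse number -0.93 with an adjusted p of 0.0381. The effects on P2rx5 at p17 and p14 differed by 0.70 (limma adjusted p = 0.662).

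P2rx7, the receptor of microglia and other immune cells, rose at p17. It had 6.37, 27.9 and 34.3 normalized reads in nOIR p17 mice (lowest, median, highest) and 46.7, 62.7 and 105.4 in OIR p17 mice. All 8 OIR mice were above all 6 controls, which 3.9% of the genes tested also showed in that direction. The rise was 1.47 on the log2 scale (SE 0.45, 95% interval 0.54 to 2.40, limma adjusted p = 0.0290). It rested in part on single mice: the control with 6.37 (mouse S6) was far below the others, and without it the difference was 1.13 with an adjusted p of 0.114, while without OIR p17 mouse S5, which had the highest value, it was 1.37 with an adjusted p of 0.0545. A block for the mouse number gave 1.43 (adjusted p = 0.0651) and quantile normalization 1.28 (adjusted p = 0.0694). Without OIR p17 mouse S8 it was 1.48 (adjusted p = 0.0375).

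At p14, P2rx7 differed in the same direction without passing the test. Its values were 1.78, 20.7 and 42.7 normalized reads in nOIR p14 mice and 23.9, 37.5 and 129.5 in OIR p14 mice, so that the groups overlapped. The difference was 1.36 (95% interval 0.37 to 2.36, limma adjusted p = 0.106, unadjusted p = 0.0090). DESeq2 on recovered reads gave an adjusted p of 0.0323, and limma without nOIR p14 mouse S6 0.0491. Without OIR p14 mouse S4, the highest of its group, the difference was 1.05 (adjusted p = 0.266), and without nOIR p14 mouse S1, the lowest of its group, it was 0.84 (adjusted p = 0.268). Without OIR p14 mouse S1 it was 1.29 (adjusted p = 0.179). The effects at p17 and p14 differed by 0.11 (95% interval -1.26 to 1.47, adjusted p = 0.978), a wide interval for a gene with few reads.

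P2rx1, the subunit of smooth muscle and platelets, rose at p17 and was counted with few reads in the other groups. The values were 0, 11.2 and 12.99 normalized reads in nOIR p17 mice and 6.95, 40.8 and 83.4 in OIR p17 mice. Of the 8 OIR mice, 7 were above all controls. The means were 8.20 ± 6.04 (SD, n = 6) and 42.8 ± 29.3 (SD, n = 8), and the rise was 2.43 on the log2 scale (SE 0.70, 95% interval 0.99 to 3.86, limma adjusted p = 0.0182). This also passed the study's limit for DEG, a log2 fold change beyond 2, which 1.9% of all genes passed in that direction. P2rx1 was counted with 0 to 14 reads in the control mice, and the rise depends on the controls with 0 reads (mouse S3) and 1 read (mouse S4). Without S3 it was 1.90 (adjusted p = 0.0747), without S4 2.11 (adjusted p = 0.0631), and with a pseudocount of 0.1 it was 3.13 (adjusted p = 0.0544). Without OIR p17 mouse S8 it was 2.31 (adjusted p = 0.0341).

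At p14, P2rx1 had 3.14, 11.2 and 21.3 normalized reads in nOIR mice and 0, 13.2 and 24.8 in OIR mice, a difference of -0.23 (95% interval -1.77 to 1.30, limma adjusted p = 0.936). The direction was not settled: the group means were 13.3 in OIR and 11.7 in nOIR mice, edgeR gave a difference of 0.20 (adjusted p = 0.943) and DESeq2 0.19 (adjusted p = 0.935), and limma without OIR p14 mouse S1, which had 0 reads, 0.42 (adjusted p = 0.853). The effect at p17 exceeded that at p14 by 2.66 (adjusted p = 0.286), so a difference between the ages was not shown. Of the 6 members other than P2rx2, 2 (P2rx1 and P2rx7) thus rose at p17, against 7.39% of all genes tested. None was called lower by limma (0 at an unadjusted p under 0.05, and 0 by edgeR and by DESeq2), against 5.12%.

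**Figure D2:**
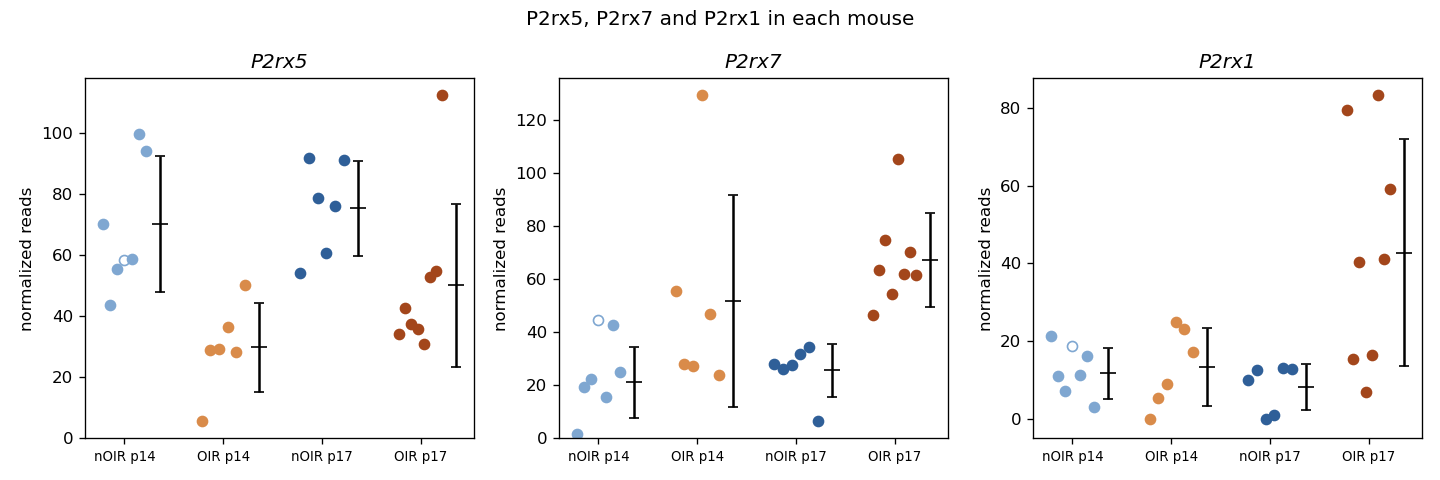
P2rx5, P2rx7 and P2rx1 in each mouse, as normalized reads (vertical axes, a scale for each gene) by group, where each point is a mouse, the bar is the group mean ± SD and the open point is mouse S4. P2rx5 is lower in most OIR p14 mice, with 1 OIR p17 mouse at 112.7, while P2rx7 and P2rx1 reach 105.4 and 83.4 in OIR p17 mice against at most 34.3 and 12.99 in nOIR p17 mice.

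The promoters of the members that rose at p17 are shown next, as RefSeq gives them on GRCm38.p6, from 250 bases before to 50 bases after the start. Both genes lie on the plus strand, P2rx7 at chr5:122643677-122643976 (the first of its starts) and P2rx1 at chr11:72998895-72999194. Capitals mark a match to TGANTCA, the site of AP-1 factors.
P2rx7: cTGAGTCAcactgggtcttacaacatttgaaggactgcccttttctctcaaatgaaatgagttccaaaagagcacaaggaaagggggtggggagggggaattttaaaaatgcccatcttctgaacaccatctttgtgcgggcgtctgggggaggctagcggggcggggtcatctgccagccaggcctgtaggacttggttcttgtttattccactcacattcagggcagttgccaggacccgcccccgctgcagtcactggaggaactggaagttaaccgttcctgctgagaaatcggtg
P2rx1: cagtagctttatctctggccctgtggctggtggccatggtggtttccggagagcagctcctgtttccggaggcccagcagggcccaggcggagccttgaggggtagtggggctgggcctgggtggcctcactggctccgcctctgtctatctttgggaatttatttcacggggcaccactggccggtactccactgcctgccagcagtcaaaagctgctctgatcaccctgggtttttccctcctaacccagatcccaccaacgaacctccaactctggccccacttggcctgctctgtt
The letters were searched on both strands. TGANTCA was found once in this P2rx7 promoter, at its far end from the start, and not in the P2rx1 promoter or at the other listed start of P2rx7 (chr5:122650133-122650432), and is held by 7.81% of 32851 promoters of the same length. ACGTG, the core of the hypoxia response element, was in none of these windows, and is held by 19.6%. GGGCGG, also searched, was found 2 times in this P2rx7 promoter and in neither other window, and is held by 35.7%. Matches describe the letters of this window only. P2rx2, P2rx3 and P2rx5 were not in the promoter table used here.

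P2rx4, the member with the highest level per kb over all mice, differed little between the groups. In nOIR p14 mice P2rx4 had 339, 412 and 504.5 normalized reads (lowest, median, highest), in OIR p14 mice 385, 497 and 625, in nOIR p17 mice 348, 477 and 575, and in OIR p17 mice 357, 514 and 554. All 4 groups overlapped. The difference was 0.23 at p14 (95% interval -0.04 to 0.50, limma adjusted p = 0.395) and 0.07 at p17 (-0.18 to 0.32, adjusted p = 0.803), so a change of 1 on the log2 scale lies outside both intervals.

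P2rx3, the sensory neuron subunit, had means between 54.6 ± 22.1 (SD, n = 8, OIR p17) and 69.5 ± 16.1 (SD, n = 6, nOIR p17) normalized reads. Its difference was 0.19 at p14 (95% interval -0.42 to 0.81, limma adjusted p = 0.837) and -0.44 at p17 (-1.01 to 0.13, adjusted p = 0.373). Over the alternatives, the P2rx3 difference ran from 0.08 to 0.36 at p14 and from -0.64 to -0.24 at p17, and passed in none. P2rx6 had means between 44.8 ± 13.6 (SD, n = 6, OIR p14) and 68.7 ± 13.3 (SD, n = 8, OIR p17) normalized reads. Its difference was -0.33 at p14 (95% interval -0.84 to 0.18, limma adjusted p = 0.575) and 0.52 at p17 (0.04 to 0.99, adjusted p = 0.169). Over the alternatives, the P2rx6 difference ran from -0.49 to -0.24 at p14 and from 0.33 to 0.63 at p17, and passed in none. For both genes the ranges of all 4 groups overlapped.

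**Figure D3:**
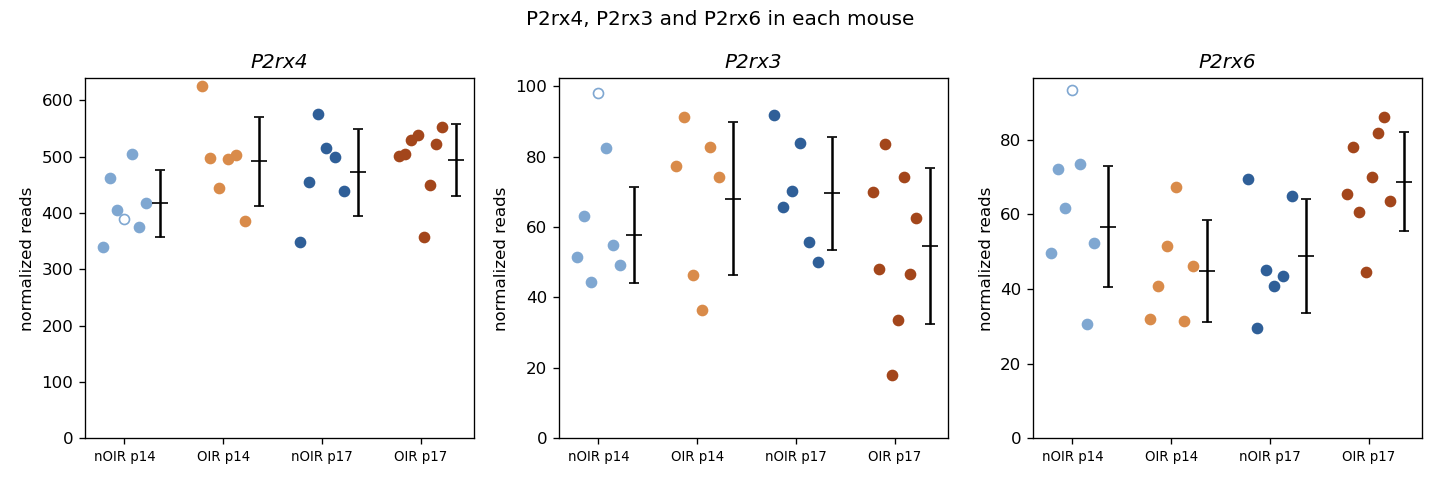
P2rx4, P2rx3 and P2rx6 in each mouse, as normalized reads (vertical axes, a scale for each gene) by group, where each point is a mouse, the bar is the group mean ± SD and the open point is mouse S4. The 4 groups overlap in each panel, with P2rx4 between 339 and 625 normalized reads.

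Of the 6 members tested between the ages, limma called none higher or lower from p14 to p17. In nOIR mice the adjusted p ranged from 0.888 to 0.972, with 0 members at an unadjusted p under 0.05 and 0 called by edgeR or DESeq2, and 0.317% of all genes passed. In OIR mice 3 were higher at an unadjusted p under 0.05, namely P2rx6 by 0.63 (adjusted p = 0.119), P2rx1 by 1.82 (adjusted p = 0.138) and P2rx5 by 0.83 (adjusted p = 0.163), with 0 by edgeR or DESeq2, and 5.91% of all genes passed (1114 higher and 491 lower, and 814 and 211 in a fit of these groups alone). The change in the OIR effect from p14 to p17 was called for 0 of the 6 (2 at an unadjusted p under 0.05, P2rx1 and P2rx6, and 0 by edgeR or DESeq2), and 1.58% of all genes passed.

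**Figure D4:**
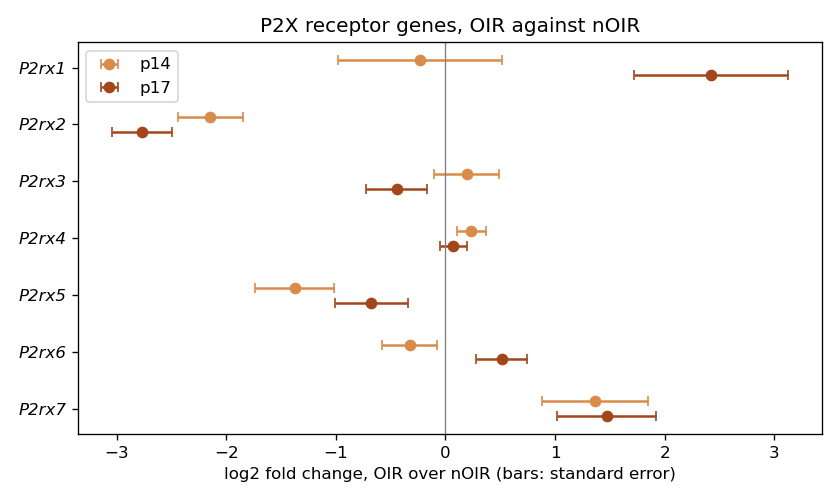
Difference between OIR and nOIR mice for each P2X gene on the log2(normalized reads + 1) scale (horizontal axis) at p14 and p17, with bars for the standard error. P2rx2 is at -2.14 and -2.77, P2rx5 is below 0 at both ages, and P2rx1 is at -0.23 at p14 and 2.43 at p17.

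Other genes of purinergic signalling were taken from a list of 43, of which 42 were in the table and 39 were tested. At p14, 1 was higher (all genes 3.18%) and 3 were lower (2.91%), with a list median of -0.18 on the log2 scale, and at p17, 6 were higher (7.39%) and 4 lower (5.12%), with a median of 0.08. The median of all genes tested was 0.02 at p14 and -0.02 at p17.

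Among the metabotropic receptors for nucleotides, P2ry6, the UDP receptor known from microglia, rose at p17 by 2.80 on the log2 scale (SE 0.41, limma adjusted p = 8.39e-06). Its normalized reads averaged 10.7 ± 7.49 (SD, n = 6) in nOIR p17 and 66.8 ± 23.6 (SD, n = 8) in OIR p17 mice, with all 8 OIR mice above all controls. At p14 P2ry6 averaged 15.7 ± 6.81 (SD, n = 6) in nOIR and 41.5 ± 24.0 (SD, n = 6) in OIR mice, a difference of 1.32 (limma adjusted p = 0.0745), and the groups lay apart by a small gap, with 22.2 in the highest control and 22.5 in the lowest OIR mouse. The difference at p14 passed with edgeR (adjusted p = 0.0476), with DESeq2 (0.0108), with mouse S4 included (0.0280) and without nOIR p17 mouse S4 (0.04999), and the effects at p17 and p14 differed by 1.48 (adjusted p = 0.329). P2ry2, a receptor for ATP and UTP, was higher at both ages, by 1.74 at p14 (adjusted p = 0.0376) and 1.61 at p17 (adjusted p = 0.0227), and no OIR mouse overlapped with a control of its age (1.91% of all genes tested were higher without overlap at p14 and 3.9% at p17). At p14 the highest control had 51.5 normalized reads and the lowest OIR mouse 52.4. The call on P2ry2 at p14 was lost when any of nOIR p14 mice S3 and S7 and OIR p14 mice S3, S4, S5 and S6 was left out (adjusted p from 0.0549 to 0.0760) and with edgeR (0.0594), and without nOIR p14 mouse S7 the difference was 1.07. That call was also lost in the compared groups only (limma adjusted p = 0.102), with a block for the mouse number (0.0863) and with quantile normalization (0.0605). All genes above 0 (0.0603) and a pseudocount of 0.1 (0.0515) lost it as well. The call at p17 was lost without nOIR p17 mouse S1 (adjusted p = 0.0767) and with quantile normalization (adjusted p = 0.0550). P2ry12, the ADP receptor of resting microglia, differed by -0.79 at p14 (adjusted p = 0.0636) and by 0.03 at p17 (adjusted p = 0.971). Of the adenosine receptors, Adora2a, which raises cAMP, rose at p17 by 1.19 (adjusted p = 0.0011), with 42.5 ± 8.15 normalized reads in nOIR (SD, n = 6) and 98.2 ± 19.9 in OIR mice (SD, n = 8).

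Of the enzymes on the cell surface that break down nucleotides, Entpd3, which removes phosphates from ATP and ADP, fell at p14 by 0.99 on the log2 scale (limma adjusted p = 0.0024) and at p17 by 1.06 (adjusted p = 0.000186). Enpp2, better known as autotaxin for making lysophosphatidic acid, fell by 0.84 (adjusted p = 0.0017) and by 1.00 (adjusted p = 2.79e-05). At p17 all 8 OIR mice lay below all controls for both genes, as for 1.98% of all genes tested. Alpl, an alkaline phosphatase, fell by 0.40 at p14 (adjusted p = 0.0015), and Nt5e, which makes adenosine from AMP, by 0.28 at p17 (adjusted p = 0.0040). Entpd1, which removes phosphates from ATP and ADP and is carried by endothelium and microglia, rose at p17 by 0.97 (adjusted p = 0.0074).

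Among the genes of ATP release and adenosine handling, Gja1, a connexin of astrocytes and vessels, rose at p17 by 1.32 (limma adjusted p = 0.0011) and Slc29a1, an adenosine transporter, by 0.76 (adjusted p = 1.26e-05). Adk, which turns adenosine into AMP, fell by 0.29 (adjusted p = 0.0484), and this call was lost under most alternatives, including equal totals per mouse (adjusted p = 0.127) and edgeR (adjusted p = 0.0629).

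**Figure D5:**
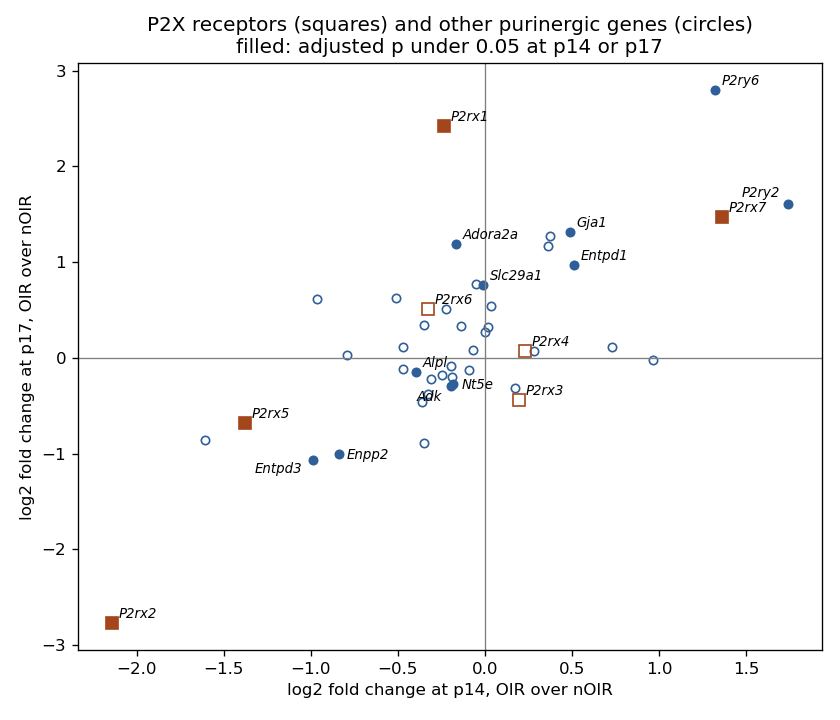
Difference between OIR and nOIR mice on the log2(normalized reads + 1) scale at p14 (horizontal axis) and p17 (vertical axis) for the P2X genes (squares) and the other 39 purinergic genes tested (circles), filled where the adjusted p was under 0.05 at either age. P2rx2 lies farthest to the lower left at -2.14 and -2.77, and P2ry6 is highest at p17 with 2.80.

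Markers of retinal cell types were read beside the members, since they moved as well. Of all genes tested, 2.91% were lower at p14 and 5.12% at p17 (adjusted p under 0.05), and a count of 1 in a short list says little about a cell type. Of 8 markers of starburst amacrine cells, 0 were called at p14 by limma (1 at an unadjusted p under 0.05, 0 by edgeR and 0 by DESeq2) and 4 were lower at p17, such as Slc18a3, the vesicular acetylcholine transporter, which fell by 0.42 on the log2 scale. Their summed level ranged from 9319 to 10153 normalized reads in nOIR p14 mice and from 7983 to 10606 in OIR p14 mice, which overlap, and from 9011 to 9641 in nOIR p17 mice and 7220 to 8250 in OIR p17 mice, which do not. Of 7 general amacrine markers, 3 were lower at both ages, and of 9 retinal ganglion cell markers 3 were lower at p14 and 6 at p17. Of 3 markers of OFF cone bipolar cells, 2 were lower at p14 and 3 at p17, and their summed level went from 5377 to 5786 normalized reads in nOIR p14 mice to 3576 to 4572 in OIR p14 mice, and from 5395 to 7162 in nOIR p17 mice to 3436 to 4409 in OIR p17 mice. Among the OFF cone bipolar markers, Tacr3, the receptor of neurokinin B, fell by 0.83 at p14 and by 1.00 at p17. Of 6 Mueller glia markers, 5 were lower at p14 and 4 at p17, with sums of 60980 to 80700 normalized reads in nOIR p14, 45804 to 58255 in OIR p14, 60942 to 77447 in nOIR p17 and 49412 to 79264 in OIR p17 mice. Of 5 markers of ON bipolar cells, 1 was lower at p14 and 4 at p17, of 6 rod markers 2 at each age, of 4 horizontal cell markers 1 at each age, and of 5 cone markers 1 at p14. No marker of these lists was at 0 in all mice, and their part in the fall of P2rx2 and P2rx5 was not tested.

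Of 7 markers of microglia, 1 was higher at p14 and 5 at p17, with summed levels of 1992 to 2551 normalized reads in nOIR p14, 1992 to 3003 in OIR p14, 1608 to 1988 in nOIR p17 and 2719 to 4632 in OIR p17 mice. C1qa, a complement subunit, rose by 2.05 at p17. The shares of all genes tested were 3.18% higher and 2.91% lower at p14, and 7.39% higher and 5.12% lower at p17. Of 6 markers of mural cells, the smooth muscle cells and pericytes of vessels, 2 were higher and 1 lower at p14 and 6 were higher at p17, with sums of 2354 to 3160 normalized reads in nOIR p17 and 8237 to 13370 in OIR p17 mice. Acta2, smooth muscle actin, rose by 3.68 at p17. Of 4 platelet markers tested, 1 was higher at p17, with a list median of 0.33: Pf4 rose by 4.87, while the difference was 0.51 for Itga2b (adjusted p = 0.177), 0.15 for Gp9 (adjusted p = 0.926) and -0.90 for Gp1bb (adjusted p = 0.321). Of 5 endothelial markers, 1 was higher and 1 lower at p14 and 4 were higher at p17, with sums of 2652 to 2942 normalized reads in nOIR p14, 1676 to 2958 in OIR p14, 2230 to 2661 in nOIR p17 and 4714 to 5981 in OIR p17 mice. All 3 red cell markers were higher at p17. Of 5 lens markers, 0 were called at either age by limma (0 at an unadjusted p under 0.05, 0 by edgeR and 0 by DESeq2), with list medians of 1.51 at p14 and 1.79 at p17. Their sums were 9.77 to 17775 normalized reads in nOIR p14, 35.4 to 6178 in OIR p14, 69.2 to 10497 in nOIR p17 and 258.2 to 30170 in OIR p17 mice, and 16234 in the nOIR p14 mouse S4 that was left out, so that mice that were kept also reached its level. The part of the cells of these lists in the rise of P2rx7 and P2rx1 was not tested.

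The genes whose levels over the 26 mice were most like those of P2rx2, by Pearson's r on the log2 scale among 14457 genes that averaged 50 normalized reads or more, were Kcnip2 (0.95), Rgs7 (0.92), Plcb1 (0.91), Grik1 (0.91) and Gabra4 (0.91). Kcnip2 encodes a partner of A-type potassium channels, Rgs7 a regulator of G proteins, Plcb1 a phospholipase C, Grik1 a kainate receptor subunit and Gabra4 a GABA-A receptor subunit. Kcnip2 had 1318 ± 105.2 (SD, n = 6) normalized reads in nOIR p14, 698.2 ± 97.6 (SD, n = 6) in OIR p14, 1442 ± 123 (SD, n = 6) in nOIR p17 and 661.0 ± 68.2 (SD, n = 8) in OIR p17 mice. Much of this likeness is the difference between the groups, which all of these mice share: with group means taken off, r was 0.55 for Kcnip2, 0.34 for Rgs7, 0.36 for Plcb1 and for Grik1, and 0.08 for Gabra4. The highest r within groups were those of Mypn (0.72), Spry4 (0.71), Coro6 (0.70), Slc18b1 (0.68) and Steap2 (0.67). Such genes, here and for the other members, are the highest of 14457 compared over 26 mice. How high r would reach among unrelated genes in such a search was not tested, so the names only describe a ranking. P2rx2 and P2rx5, the falling members, had r = 0.63 over the mice and 0.29 within groups.

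For P2rx5, over all mice the nearest genes were Rap1gap (r = 0.92), Srebf2 (0.91), Slc17a7 (0.91), Syn1 (0.90) and Gnao1 (0.89), and within groups Golga7b (0.90), Rap1gap (0.88), Pgap6 (0.88), Slc17a7 (0.87) and Igsf8 (0.86). Slc17a7, the vesicular glutamate transporter of photoreceptors and bipolar cells, had 21296 normalized reads at its lowest, in OIR p14 mouse S1, against a mean of 53417 ± 2826 (SD, n = 6) in nOIR p14 mice. OIR p14 mouse S1, which stood apart from its group, had the lowest level of P2rx5 and of each of these genes. Without it, a choice made after the data were seen, r over the other 25 mice was 0.77 to 0.82 for the genes named over all mice and 0.68 to 0.80 for those named within groups. For P2rx3, P2rx4 and P2rx6, the highest r over all mice were 0.61 (Mei4), 0.79 (Gm7251) and 0.77 (Stard8). P2rx7 and P2rx1 had too few reads for this comparison.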

How the data were processed

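Retinas of 27 mice were sequenced as 50-base single reads. Per the study's methods, the authors mapped reads with STAR 2.7.8a to the mouse genome of Gencode M28, counted them with featureCounts 2.0.1 and removed genes at 0 in all samples. Of the 40129 genes in the deposited values, 164 were still at 0 in all mice. The deposited values are a signal of normalized reads, namely read counts divided by a DESeq2 1.34 size factor per mouse. The deposited group means, log2 fold changes and adjusted p-values of the authors' own comparisons were not used. A single factor for each mouse turned 100% of its values into whole reads (within 0.001 reads). PCR copies were not removed, so reads are not independent molecules. Mice of a group differed by more than sampling noise, so none was a copy of another.

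Values were put on the log2(normalized reads + 1) scale, and the 27137 genes that averaged 1 normalized read or more over 26 mice were tested with limma 3.58.1 (trend, 4 groups in one fit, R 4.3.3) and Benjamini-Hochberg adjustment. Passing means an adjusted p under 0.05. P2rx2 at p14 was also tested by an exact permutation test in Python 3.11.15 with scipy 1.17.1. Intervals are at 95%. The alternatives were all genes above 0, a minimum mean of 10, a pseudocount of 0.1, inclusion of nOIR p14 mouse S4, the compared groups only, a block for the mouse number, equal totals, quantile normalization, edgeR 4.0.16 and DESeq2 1.42.0 on the recovered reads, and leaving out each mouse in turn. On those reads, edgeR called 865 genes higher and 697 lower at p14 and 2050 and 1190 at p17, and DESeq2 called 1136 and 978 at p14 and 2299 and 1525 at p17. On simulated data for the p14 comparison, limma recovered 99% of 200 genes that fell by 2 on the log2 scale, with 8 false calls. It recovered 32.5% of those that fell by 1, with 5 false calls, and made 0 calls where nothing was changed. The changed genes averaged 10 normalized reads or more and all genes were given the same relative spread between mice. The recovery is thus a check of the fit and does not measure how well a change in a given member would be found.

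The members, the purinergic list (P2ry10 was not in the table) and the marker lists were chosen with earlier results of these data known. Named are the 7 members, up to 5 purinergic genes per comparison and direction with the smallest adjusted p, up to 3 markers per list, and the 5 genes most like a member by Pearson's r. P2ry12, a member of the purinergic list, was added after its values were seen. Exon lengths and shared stretches come from GENCODE M21 and promoters from RefSeq (GRCm38.p6), an earlier build than that of the files. Coordinates are given only for promoters, on that build.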

Additional observations from a re-analysis of the deposited data

Results flagged for a closer look

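In 28 groups of values (7 members in 4 groups of mice), the highest and lowest mouse were compared with the next one by Dixon's 95% limit for the gap divided by the range, which chance exceeds in about 1 in 20 groups. The limit was exceeded by 3 values. OIR p17 mouse S8 had 112.7 normalized reads of P2rx5, while the next mouse had 54.9 (gap over range 0.707). OIR p14 mouse S4 had 129.5 normalized reads of P2rx7, while the next had 55.8 (gap over range 0.698). The nOIR p17 mouse S6 had 6.37 normalized reads of P2rx7, while the next lowest had 26.1 (gap over range 0.705).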

How the results depend on the processing

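P2rx2 was lower at p14 with an adjusted p under 0.05 in all 36 alternatives, with a difference from -2.36 to -2.07, and at p17 it ranged from -2.90 to -2.64, and no member that passed changed its direction. The number of P2X genes higher at p14 was 0, and 1 with DESeq2, with 0 to 1 when a mouse was left out (1 without nOIR p14 mouse S6). The number lower at p14 was 2, and 1 in the compared groups only. The number higher at p17 was 2, and 1 with a pseudocount of 0.1 or quantile normalization, with 1 to 2 when a mouse was left out. The mouse number gave no pairing that could be seen: same-numbered mice had a median r of 0.0031 over 34 pairs (4 over 0.1), against -0.0012 over 218 other pairs. With a block for it, of the 6 members other than P2rx2, 1 was higher and 1 (P2rx5) was lower at p17, instead of 2 and 0, and 0 purinergic genes were higher at p14. That last number was 1, and 0 with a pseudocount of 0.1, all genes above 0, the compared groups only or quantile normalization, 2 with S4 included or DESeq2, and 0 to 2 when a mouse was left out. Over all genes, equal totals per mouse moved the calls at p17 from 2005 higher and 1390 lower to 2406 and 964, and at p14 from 862 and 790 to 1019 and 609. The calls on the difference between the ages numbered 389 higher and 40 lower, 255 and 14 with the block, and 597 and 93 with DESeq2. Between nOIR p17 and p14, they were 43 and 43, 114 and 90 in these groups alone, 109 and 127 with DESeq2, 37 and 27 with the block, and 39 and 79 with equal totals. Between OIR p17 and p14, they were 1114 and 491, 814 and 211 in these groups alone, and 837 and 298 with the block. The causes were not tested. P2rx1 and P2rx7 were counted with 0 to 146 reads per mouse, and whether depth limits them was not tested.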
